A study of Mus musculus with 10 samples.

Results

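Afp, H19, Igf2, Gpc3 and Igf2bp3 are 5 genes of the fetal liver that are read again in regenerating liver or in liver tumours. They were taken by name from bulk RNA-seq of 10 mouse livers, in a table of 55291 genes. All but Igf2bp3 passed the filter on low counts, so that 4 of the 17015 genes tested were members. The study asked how Bap1, a deubiquitinase of the nucleus, shapes the liver and its answer to injury.

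All 10 mice were females aged 16 to 20 weeks with a Cas9 gene held silent by a stop cassette (Cas9 Lox-Stop-Lox), and all of them received an AAV8 virus that carries a guide RNA and Cre. Cre was driven by the TBG promoter of hepatocytes, so Cas9 was switched on in the hepatocytes that the virus reached and not, by design, in the other cells of the organ. The guide was a non-targeting control in NTC mice and was directed at Bap1 in sgBap1 mice. After 10 days the mice were injected with olive oil (Veh) or with carbon tetrachloride (CCl4, 1 part in 9 parts of olive oil, 10 µL per g of body weight), a solvent that hepatocytes around the central vein turn into a toxic radical. RNA was made from the livers 48 hours later. The vehicle groups NTC-Veh and sgBap1-Veh held 2 livers each, and NTC-CCl4 as well as sgBap1-CCl4 held 3. Nothing in the labels marks litters, cages or processing days, so the p-values measure the spread between these samples only.

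Alpha-fetoprotein, the product of Afp, is the main serum protein of the fetal liver and is replaced by albumin after birth, when its gene is silenced in hepatocytes. Igf2 codes for a fetal growth factor and H19 for a noncoding RNA; the genes are neighbours with opposite imprints, with Igf2 read from the paternal and H19 from the maternal copy, and both are turned down in most tissues after birth. Gpc3 codes for glypican-3, a heparan sulfate proteoglycan of the cell surface, and Igf2bp3 for a protein that binds Igf2 and other messenger RNAs. All 5 are used as markers of fetal or malignant liver cells.

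Total estimated counts ran from 3.30e+07 to 5.22e+07 per liver. Levels are given in counts per 1e+06 of the TMM-normalized library (CPM), in which 3 counts were worth 0.0511 to 0.112, and intervals and floors cover counting error only. Bap1 measured 34.8 CPM in both NTC-Veh livers, 17.5 and 19.5 in the sgBap1-Veh livers, 29.5 to 31.5 in the NTC-CCl4 livers and 17.0 to 21.8 in the sgBap1-CCl4 livers, and was lower with the Bap1 guide in vehicle (log2 fold change -0.91, adjusted p = 0.0208 by edgeR's quasi-likelihood test) and in CCl4 (-0.65, adjusted p = 0.0295). Each of these calls was lost in several alternatives, but the average over treatments (-0.78, adjusted p = 0.00612) was called in every one run. All 8 hepatocyte markers examined were read in every liver, with a sum of 10200 to 23700 CPM. The liver sgBap1-CCl4 replicate 2 stood apart, with 139 CPM over 5 adipocyte markers against 8.45 to 16.3 in the other 9 livers, and counts and values of the members and gene lists that changed without it are given both ways. In bulk RNA, fewer cells of a type and less RNA per cell cannot be told apart.

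Afp (ENSMUSG00000054932.6) lies at chr5:90490737-90508907 on the + strand of GRCm38 (GENCODE vM21). The RefSeq promoter table (GRCm38.p6) holds 4 of the 5 members, all but H19. The promoters of Afp and Gpc3 are printed to show how unlike the start regions of a serum protein gene and of a cell surface proteoglycan gene are. Each run is the 250 bases before the RefSeq start, chr5:90490464-90490713 on the + strand for Afp and chrX:52613975-52614224 on the - strand for Gpc3. Capitals mark matches on either strand to TGTTTGC, a core of the FOXA site, and to TATAAA, the TATA box.
Afp promoter: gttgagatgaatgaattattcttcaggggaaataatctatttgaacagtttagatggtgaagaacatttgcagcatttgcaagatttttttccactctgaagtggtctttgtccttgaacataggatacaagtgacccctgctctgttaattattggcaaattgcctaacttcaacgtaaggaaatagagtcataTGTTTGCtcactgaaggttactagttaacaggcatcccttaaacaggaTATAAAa
Gpc3 promoter: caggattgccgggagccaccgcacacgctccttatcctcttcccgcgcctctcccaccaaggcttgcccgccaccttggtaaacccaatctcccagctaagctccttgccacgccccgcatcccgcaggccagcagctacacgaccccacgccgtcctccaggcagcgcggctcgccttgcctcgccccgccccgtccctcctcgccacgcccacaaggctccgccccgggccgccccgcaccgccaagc
The Afp stretch holds both motifs, with first bases 55 (TGTTTGC) and 7 (TATAAA) bases before the RefSeq start. The GENCODE start of Afp lies 23 bases further downstream, which puts the TATA box 30 bases before it. In the whole windows of 300 bases, from 250 before to 50 after the start, the promoters of Gpc3 and Igf2bp3 and the 4 promoters listed for Igf2 held none of these letters. Over the 32851 promoters of the table, TGTTTGC was found in 5.07% and TATAAA in 13.6%. The Afp window had a GC content of 40.0% and 3 CpG, that of Gpc3 70.7% and 30 CpG, and that of Igf2bp3 60.3% and 25 CpG, with medians of 52.7% and 7 CpG over the table. A match describes the letters and is not a measured binding site.

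Afp rose with CCl4 in both genotypes. Its change in sgBap1 livers was the largest fitted change of the 4 tested members in any comparison, while in NTC livers that of H19 was larger. The 2 NTC-Veh livers had 1.72 and 1.16 CPM (63 and 42 counts) and the 2 sgBap1-Veh livers 0.431 and 0.786 CPM (16 and 21 counts). The 3 NTC-CCl4 livers had 7.70, 18.1 and 9.11 CPM, and the 3 sgBap1-CCl4 livers 9.69, 14.5 and 10.7 CPM. All 6 CCl4 livers lay above all 4 vehicle livers. In NTC livers the mean went from 1.44 ± 0.39 CPM (SD, n = 2) to 11.7 ± 5.67 (SD, n = 3), a fold of 8.10 (log2 fold change 3.02, SE 0.44, adjusted p = 0.000389). In sgBap1 livers it went from 0.608 ± 0.251 CPM (SD, n = 2) to 11.7 ± 2.55 (SD, n = 3), a fold of 19.8 (log2 fold change 4.31, SE 0.52, adjusted p = 0.000107). The exact permutation test of CCl4 against vehicle within genotype, two-sided, gave p = 0.01 for a mean log2 difference of 3.55, the smallest value that its 100 regroupings allow.

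**Figure D1:**
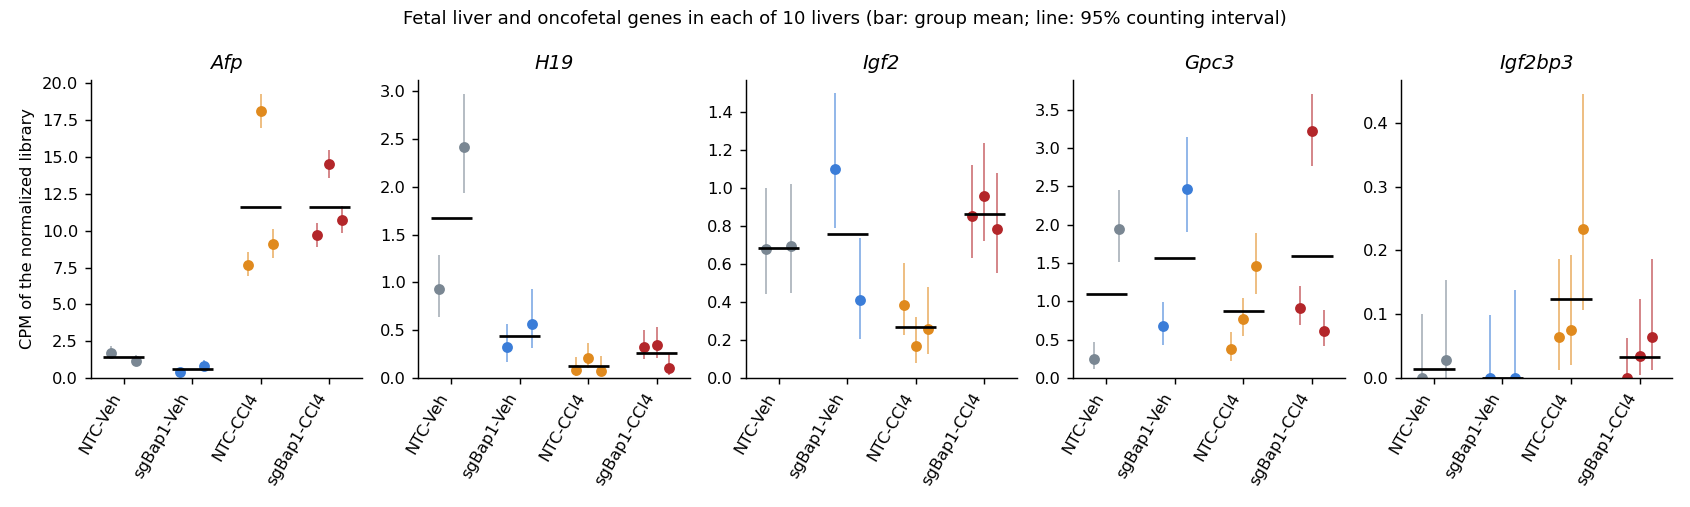
CPM of the normalized library (vertical axis, linear, from 0, a scale of its own for each gene) of the 5 genes in each of the 10 livers, by group; points are livers, horizontal bars group means and vertical lines 95% Poisson intervals of the count. The 6 CCl4 livers lie above the 4 vehicle livers for Afp, and the Gpc3 groups overlap throughout. For Igf2 the points of the 3 NTC-CCl4 livers are the lowest, but their intervals overlap with those of other livers.

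The levels of Afp in the CCl4 groups did not differ beyond their spread, at 11.7 CPM in each (log2 fold change -0.00 for sgBap1-CCl4 against NTC-CCl4, 95% interval -0.72 to 0.71, adjusted p = 0.998). NTC-CCl4 replicate 2 was the highest of all livers at 18.1 CPM, and without it the difference was 0.47 (adjusted p = 0.398). In vehicle, both sgBap1 livers lay below both NTC livers, by -1.29 in log2 fold change (SE 0.62, 95% interval -2.69 to 0.11, adjusted p = 0.447). The interaction, the change with CCl4 in sgBap1 minus that in NTC livers, was 1.29 (SE 0.70, adjusted p = 0.586), so the larger fold in sgBap1 livers was not shown to differ from that in NTC livers. In the order of the means the CCl4 groups overlapped with each other, NTC-Veh came next without overlap, and sgBap1-Veh was lowest, also without overlap. That last separation is between groups of 2 livers. The 95% counting intervals of NTC-Veh replicate 2 (0.839 to 1.57 CPM) and sgBap1-Veh replicate 2 (0.487 to 1.2 CPM) overlapped.

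Per kb of exonic sequence, Afp reached 3.47 CPM in both CCl4 groups, against 26400 ± 1870 CPM per kb (SD, n = 3) for albumin in NTC-CCl4 livers. The albumin family, the cluster of serum carriers to which Afp belongs, went the other way in NTC livers, where all 3 of its other members were lower with CCl4. Of all genes tested there, 53.9% were called in either direction. Alb, the albumin gene, changed by -0.76 on the log2 scale (SE 0.23, adjusted p = 0.0168), Afm, afamin, of -0.75 (adjusted p = 0.00364), and Gc, the vitamin D binding protein, of -0.75 (adjusted p = 0.00423). In sgBap1 livers Afm (-0.73) and Gc (-0.75) fell, and Alb had -0.42 (adjusted p = 0.142). None of these calls held when libraries were scaled by their total alone, which moves the median of all genes by 0.50 in NTC and by 0.52 in sgBap1 livers, while the Afp changes became 3.49 and 4.80 on that scale.

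Of 11 genes listed as regulators of Afp, 8 were changed with CCl4 in NTC livers, 7 of them lower, and 7 in sgBap1 livers, 6 of them lower. The median log2 fold changes were -0.60 and -0.48, against 0.03 and 0.04 over all genes tested. The same comparisons called 53.9% and 57% of all genes tested, in either direction. Zhx2, a repressor that silences Afp and H19 after birth, was at 13.6 to 20.3 CPM over the 10 livers, with log2 fold changes of -0.15 in NTC (adjusted p = 0.393) and -0.01 in sgBap1 livers (adjusted p = 0.943). Zbtb20, a zinc finger repressor of Afp in the adult liver, fell from 118 ± 5.75 CPM (SD, n = 2) to 81.5 ± 6.58 (SD, n = 3) in NTC livers (log2 fold change -0.54, adjusted p = 0.00125) and by 0.49 on the log2 scale in sgBap1 livers (adjusted p = 0.00197). Among the hepatocyte factors, Cebpa fell most, by 1.56 on the log2 scale in NTC livers (adjusted p = 6.42e-05) and by 1.92 in sgBap1 livers (adjusted p = 1.68e-05). Foxa2 fell by 1.03 and 0.88. Cebpb, an injury-responsive factor, fell by 0.83 in NTC livers and had a log2 fold change of 0.26 in sgBap1 livers (adjusted p = 0.311). Nr5a2, the nuclear receptor LRH-1, was 0.53 lower on the log2 scale in sgBap1 livers (log2 fold change -0.53) and was called lower in NTC livers too. Trp53, the p53 gene, rose from 22.0 to 33.8 CPM in NTC livers (adjusted p = 0.000103) and was called higher in sgBap1 livers too. With library totals alone, 3 regulators were lower and 1 higher in NTC livers, and 2 lower and 4 higher in sgBap1 livers. That scaling ended the calls of Zbtb20, Foxa1 and Nr5a2 in both genotypes and of Cebpb in NTC livers, among others.

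H19 (ENSMUSG00000000031.16, chr7:142575529-142578143, - strand) went the opposite way to Afp in NTC livers. The NTC-Veh livers had 0.926 and 2.41 CPM (34 and 87 counts) and the sgBap1-Veh livers 0.323 and 0.561 CPM (12 and 15 counts). The NTC-CCl4 livers had 0.0853, 0.207 and 0.0781 CPM (4, 11 and 3 counts), and the sgBap1-CCl4 livers 0.324, 0.342 and 0.106 CPM (19, 20 and 5 counts). The NTC-Veh livers were thus the highest, and the other 3 groups each overlapped with their neighbour in the order sgBap1-Veh, sgBap1-CCl4, NTC-CCl4.

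With CCl4, H19 was 12.6-fold lower in NTC livers (log2 fold change -3.66, SE 0.58, adjusted p = 0.000437), with all 3 livers below both NTC-Veh livers. This call held without any of the 10 livers, at -4.30 to -2.81. In sgBap1 livers the log2 fold change was -0.68 (SE 0.67, 95% interval -2.17 to 0.82, adjusted p = 0.413) and the groups overlapped. In vehicle, both sgBap1 livers lay below both NTC livers (log2 fold change -1.96, SE 0.58, unadjusted p = 0.00689, adjusted p = 0.186), a difference that shrank to -1.11 without NTC-Veh replicate 2. The 95% counting intervals of NTC-Veh replicate 1 (0.641 to 1.29 CPM) and sgBap1-Veh replicate 2 (0.314 to 0.926 CPM) overlapped. Among the CCl4 livers the sgBap1 mean was the higher one, by 1.02 in log2 fold change (SE 0.70, adjusted p = 0.547), with overlap. The interaction was 2.98 (SE 0.91, unadjusted p = 0.00822) and did not pass after adjustment by edgeR's quasi-likelihood test (adjusted p = 0.252), so the effect of CCl4 on H19 was not shown to differ between genotypes. The exact permutation test within genotype gave p = 0.03 for a mean log2 difference of -2.02 between CCl4 and vehicle, and p = 0.567 for the guide.

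Igf2 (ENSMUSG00000048583.16, chr7:142650766-142666816, - strand) is separated from H19 by 72.6 kb. The NTC-Veh livers had 0.681 and 0.693 CPM (25 counts each) and the sgBap1-Veh livers 1.10 and 0.412 CPM (41 and 11 counts). The NTC-CCl4 livers had 0.384, 0.169 and 0.260 CPM (18, 9 and 10 counts), and the sgBap1-CCl4 livers 0.851, 0.959 and 0.786 CPM (50, 56 and 37 counts). All 3 NTC-CCl4 livers lay below the other 7 livers. The other 3 groups overlapped in the order sgBap1-CCl4, sgBap1-Veh, NTC-Veh.

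CCl4 lowered Igf2 2.55-fold in NTC livers (log2 fold change -1.35, SE 0.46, adjusted p = 0.0286). This call rested on few livers, since it was lost without NTC-Veh replicate 1 (adjusted p = 0.0987), NTC-Veh replicate 2 (0.107), NTC-CCl4 replicate 2 (0.0902) or NTC-CCl4 replicate 3 (0.0611), and with library totals alone (-0.88, adjusted p = 0.135). In sgBap1 livers the log2 fold change was 0.12 (95% interval -0.71 to 0.96, adjusted p = 0.795). Among CCl4 livers, the sgBap1 livers were 3.22-fold higher than the NTC livers without overlap (log2 fold change 1.69, SE 0.38, unadjusted p = 0.00112), which did not pass after adjustment (adjusted p = 0.0988) but did by DESeq2's Wald test (adjusted p = 0.0203). Without the liver with adipocyte markers the value was 1.61 (adjusted p = 0.213). The interaction was 1.47 (SE 0.59, unadjusted p = 0.0308, adjusted p = 0.417). The exact permutation test gave p = 0.1 for the guide within treatment and p = 0.26 for CCl4 within genotype.

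**Figure D2:**
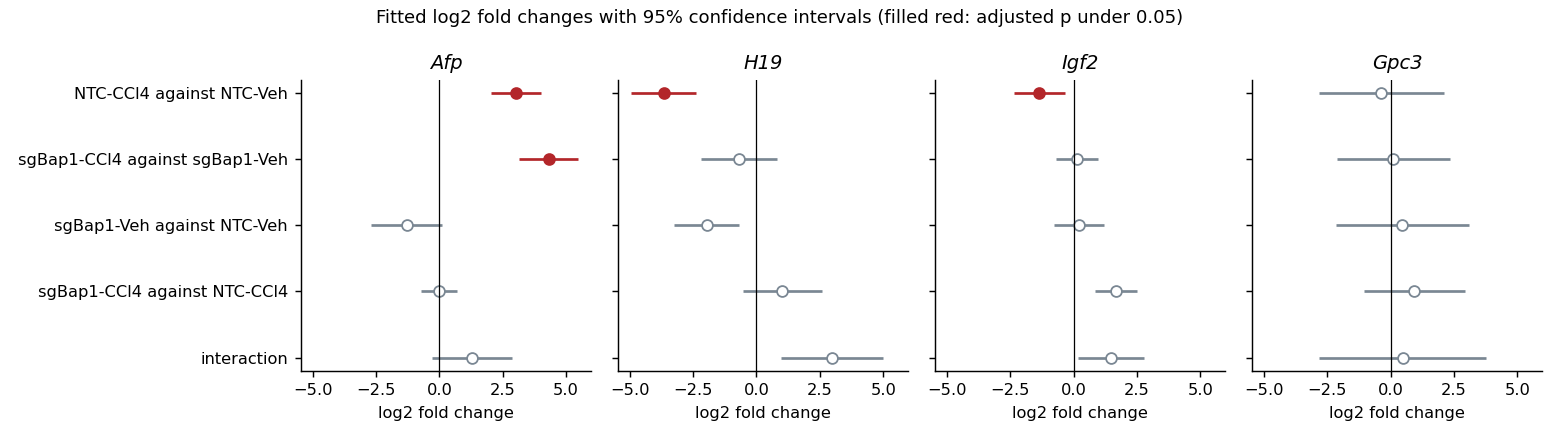
Fitted log2 fold changes (horizontal axis) of the 4 tested members in 5 comparisons, with 95% confidence intervals; filled red points have an adjusted p under 0.05 by edgeR's quasi-likelihood test. The 4 values past the threshold are Afp at 3.02 and 4.31 and, in NTC livers, H19 at -3.66 and Igf2 at -1.35.

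H19 and Igf2 were thus called lower with CCl4 in NTC livers, where Afp was called higher: 3 of the 4 members tested, against 53.9% of all 17015 genes called in that comparison. In sgBap1 livers 1 of 4 members was called, Afp, against 57% of all genes. With library totals alone, the share of higher genes among all genes called went from 50.8% to 80.5% in NTC livers and from 50.9% to 78.3% in sgBap1 livers. None of the 4 was called for the guide by edgeR's quasi-likelihood test, against 0.406% of all genes in vehicle, 0.329% in CCl4 and 0.411% averaged over both treatments, and none for the interaction, which called 0% of genes. At an unadjusted p under 0.05 there was 1 member in vehicle (H19), 1 in CCl4 and 1 on average (Igf2 in both), and 2 for the interaction (H19 and Igf2), where 12.3%, 14%, 15.8% and 10.4% of all genes were under that threshold. DESeq2's Wald test called 1 member, Igf2 in CCl4, and limma-voom 0. The comparisons share livers with one another, so they are not independent. Over the 95 tested genes of the 10 lists described here, edgeR called 1 gene for the guide averaged over treatments and none in vehicle, in CCl4 or for the interaction, with 14, 15, 12 and 13 genes at an unadjusted p under 0.05 (14.7%, 15.8%, 12.6% and 13.7% of the 95).

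Reads of Igf2 could be shared with an overlapping gene, and its values are uncertain in that respect. Of its stretches of 50 bases, 61.2% also occur in Gm49394, a readthrough annotation on the same strand that had 0 counts in every liver. H19 shares 1.33% with Mir675, which lies inside it and also had 0 counts, and Afp, Gpc3 and Igf2bp3 share none. On the opposite strand, Igf2os had 0 to 3 counts, Gm43449, which overlaps Afp, 3 to 12, and Gm14582 and A630012P03Rik, which overlap Gpc3, 0 to 4. Malsu1, which runs into the end of Igf2bp3 from the other strand, had 277 to 510. The libraries were stranded, but the strand setting of the counting is not given in the sources used here.

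Of 7 neighbours of H19 and Igf2 on chromosome 7, only Mrpl23 and Lsp1 passed the filter. Mrpl23, a mitochondrial ribosomal protein gene next to H19, fell with CCl4 by 0.72 on the log2 scale in NTC livers (adjusted p = 0.00184) and by 0.58 in sgBap1 livers (adjusted p = 0.00596). Lsp1, a gene of leukocytes, rose by 2.42 (adjusted p = 8.26e-06) and 1.65 (adjusted p = 5.94e-05) on the log2 scale. Among all genes tested, 53.9% were called in NTC and 57% in sgBap1 livers, in either direction. The Mrpl23 calls were lost with library totals alone.

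Of 18 genes of the wider imprinted gene network, 17 were tested, and in NTC livers 8 rose and 1 fell with CCl4, and in sgBap1 livers 7 rose and 2 fell, with median log2 fold changes of 0.61 and 0.80 against 0.03 and 0.04 over all genes. In each genotype 8 were not called, and among all genes tested 53.9% were called in NTC and 57% in sgBap1 livers. With library totals alone, 11 rose and 1 fell in NTC livers and 13 rose and 1 fell in sgBap1 livers, and without the liver with adipocyte markers 9 rose in NTC livers. Peg10, a retrotransposon-derived gene of the placenta, rose from 0.511 ± 0.453 CPM (SD, n = 2) to 3.42 ± 0.956 (SD, n = 3) in NTC livers (log2 fold change 2.73, adjusted p = 0.000672) and by 2.69 on the log2 scale in sgBap1 livers. Mest, a hydrolase-like gene, rose by 1.28 and 1.32, and Grb10, an adaptor that dampens insulin and IGF signalling, by 1.85 in sgBap1 livers (adjusted p = 0.00138). Grb10 was called higher in NTC livers too. Slc38a4, an amino acid transporter of hepatocytes, fell by 1.99 and 2.08 on the log2 scale, from 1550 and 1640 CPM in the vehicle groups to 391 and 387. Phlda2 had 0 counts in both NTC-Veh livers and 9 to 26 in the NTC-CCl4 livers, at least 4.56-fold higher against a floor of 3 counts per liver, and with it at that bound the NTC median stayed at 0.61. Dlk1, a surface protein of hepatoblasts, had 0 to 3 counts in 9 livers and 37 in the liver with adipocyte markers, and was not tested.

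Of 8 genes that set or keep imprints, 5 rose and 1 fell with CCl4 in each genotype, or 4 and 1 without the liver with adipocyte markers. Calls over all genes tested came to 53.9% in NTC and 57% in sgBap1 livers. Uhrf1, which guides Dnmt1 to newly copied DNA, rose from 0.576 ± 0.109 CPM (SD, n = 2) to 25.5 ± 3.37 (SD, n = 3) in NTC livers (log2 fold change 5.46, adjusted p = 2.21e-06) and by 3.85 in sgBap1 livers (adjusted p = 4.50e-06). Dnmt1, the maintenance methyltransferase, rose by 1.99 and 1.77, and Zfp57, a zinc finger protein that holds imprints, rose by 1.42 in sgBap1 livers (adjusted p = 0.00125). Zfp57 was called higher in NTC livers too. Ctcfl, the paralogue of the insulator protein CTCF, fell by 1.04 and 1.21, which was lost with library totals alone. For the guide averaged over treatments, Dnmt3b, a de novo methyltransferase, was lower (log2 fold change -0.94, SE 0.17, adjusted p = 0.0497), and no gene of the list was called for it without the liver with adipocyte markers.

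Of the IGF system around Igf2, 17 genes were tested with CCl4, and 8 fell and 3 rose in NTC livers and 7 fell and 5 rose in sgBap1 livers (medians -0.79 and -0.41). These comparisons called 53.9% and 57% of all genes tested. Without the liver with adipocyte markers 5 rose and 8 fell in NTC livers and 4 rose and 7 fell in sgBap1 livers, and with library totals alone 6 rose and 6 fell in sgBap1 livers. Igf1, the growth factor that replaces Igf2 after birth, went from 880 ± 140 CPM (SD, n = 2) to 445 ± 29.9 (SD, n = 3) in NTC livers (log2 fold change -0.98, adjusted p = 0.00471) and fell by 1.05 on the log2 scale in sgBap1 livers (adjusted p = 0.00315). Igfals, the acid-labile subunit that keeps IGFs in the circulation, fell by 1.75 and 2.03, and Igfbp2 and Igfbp3, binding proteins, by 2.30 and 2.41 in NTC livers. Both binding proteins were called lower in sgBap1 livers too. Igfbp1, the binding protein that stress and fasting raise, rose by 1.52 in NTC livers (adjusted p = 0.00194) and by 2.91 in sgBap1 livers (adjusted p = 5.46e-05), and Pappa, a protease that frees IGFs, by 3.24 (adjusted p = 0.0126) and 3.36 (adjusted p = 0.00729). Stc1, an inhibitor of Pappa, had 2 counts over the sgBap1-Veh livers and 260 over the sgBap1-CCl4 livers, a ratio of 50.7 (95% counting interval 13.9 to 421), and 184 of the 260 came from the liver with adipocyte markers. Igf2r, the receptor that clears Igf2, rose by 0.44 (adjusted p = 0.0144) and 0.80 (adjusted p = 0.000457). Per kb of exon, Igf1 in NTC-Veh livers was at 88.9 ± 14.1 CPM (SD, n = 2) and Igf2 at 0.120 ± 0.0015 (SD, n = 2).

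Gpc3 (ENSMUSG00000055653.13, chrX:52272426-52613950, - strand) differed more within groups than between them. The NTC-Veh livers had 0.245 and 1.94 CPM (9 and 70 counts) and the sgBap1-Veh livers 0.673 and 2.47 CPM. The NTC-CCl4 livers had 0.384, 0.770 and 1.46 CPM, and the sgBap1-CCl4 livers 0.919, 3.22 and 0.616 CPM. All 4 groups overlapped, and the highest liver stood 13.1-fold above the lowest. No comparison was called, with log2 fold changes from -0.36 (NTC-CCl4 against NTC-Veh, 95% interval -2.81 to 2.09) to 0.93 (sgBap1-CCl4 against NTC-CCl4, 95% interval -1.06 to 2.92) and adjusted p from 0.676 to 0.950. The intervals leave room for changes of over 2 log2 units in either direction in the CCl4 comparisons. Without sgBap1-CCl4 replicate 2, the liver with adipocyte markers and the most Gpc3, the guide difference in CCl4 was -0.12 (adjusted p = 0.979).

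Gpc3 followed the markers of mesothelial cells, the cells of the liver capsule, from liver to liver. The summed level of Msln, Upk3b, Upk1b, Wt1, Gpm6a and Lrrn4 was 1.23 and 19.3 CPM in the NTC-Veh livers, 7.40 and 15.6 in the sgBap1-Veh livers, 4.84, 7.76 and 16.9 in the NTC-CCl4 livers and 10.4, 22.1 and 8.23 in the sgBap1-CCl4 livers. The liver with the least Gpc3 had the lowest sum and the liver with the most had the highest, and in 8 of 10 livers the ranks in Gpc3 and in the sum differed by at most 1. Msln itself, mesothelin, had 0.136 CPM in NTC-Veh replicate 1 and 4.82 in NTC-Veh replicate 2. None of the 6 markers was at 0 in any liver and none was called in any of the 6 comparisons. For each 100 CPM of marker sum there were 7.48 to 19.9 CPM of Gpc3, and the part of these cells in the Gpc3 level was not tested.

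**Figure D3:**
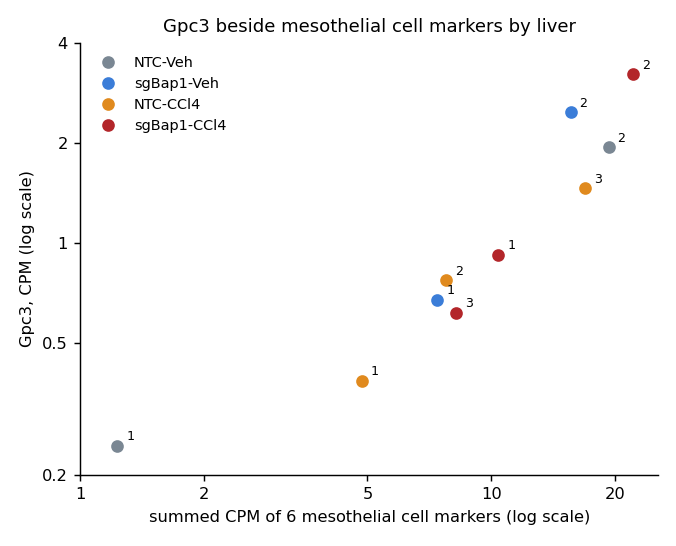
Gpc3 in CPM (vertical axis, log scale) against the summed CPM of 6 mesothelial cell markers (horizontal axis, log scale) in 10 livers coloured by group, with the replicate number beside each point. The points climb together from NTC-Veh replicate 1 (1.23 and 0.245 CPM) to sgBap1-CCl4 replicate 2 (22.1 and 3.22 CPM), and no group stands apart.

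Of 7 other glypicans and glypican modifiers tested, 2 rose and 3 fell with CCl4 in NTC livers and 3 fell in sgBap1 livers. Over all genes tested, 53.9% and 57% were called. Notum, an extracellular enzyme that removes the lipid from Wnt proteins, fell by 2.39 on the log2 scale in NTC livers (adjusted p = 8.23e-06) and by 2.50 in sgBap1 livers (adjusted p = 6.22e-06). Gpc1, glypican-1, rose by 1.75 in NTC livers (adjusted p = 0.000101), from 3.54 ± 1.11 CPM (SD, n = 2) to 11.9 ± 1.65 (SD, n = 3), and Gpc2 by 1.37 (adjusted p = 0.0431). Neither was called in sgBap1 livers. Sulf2, a heparan sulfate editing enzyme, fell by 0.49 and 0.51 and Gpc4 by 0.31 in sgBap1 livers. Gpc4 was called lower in NTC livers too. With library totals alone 3 rose and 1 fell in sgBap1 livers, 2 rose and 1 fell in NTC livers, the Sulf2 calls were lost and Gpc4 changed sign in both genotypes.

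Igf2bp3 (ENSMUSG00000029814.10, chr6:49085223-49214957, - strand) was barely read, with 22 counts in all. The NTC-Veh livers had 0 and 1 counts, the sgBap1-Veh livers 0 and 0, the NTC-CCl4 livers 3, 4 and 9 and the sgBap1-CCl4 livers 0, 2 and 3. The highest level, in NTC-CCl4 replicate 3, was 0.234 CPM, and 3 counts, the floor taken for a count of 0, were worth 0.0807 and 0.112 CPM in the sgBap1-Veh livers. As counted, the 3 NTC-CCl4 livers lay above both NTC-Veh livers. At 0.064 and 0.0751 CPM, NTC-CCl4 replicates 1 and 2 were under the floor of NTC-Veh replicate 1 (0.0817 CPM), so that order is not certain. The summed counts of 16 and 1 gave a ratio of 8.41 per normalized library (95% counting interval 1.31 to 353). The gene did not pass the filter on low counts. In a fit without that filter, edgeR's quasi-likelihood test gave no call for CCl4. The log2 fold changes were 2.85 in NTC livers (SE 1.35, adjusted p = 0.136) and 3.56 in sgBap1 livers (SE 2.60, adjusted p = 0.36). The exact permutation test gave p = 0.05 for CCl4 within genotype and p = 0.05 for the guide within treatment, with mean log2 differences of 1.06 and -0.71 that are shaped by the prior count of 2.

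Among the relatives and partners of Igf2bp3, 7 of 11 genes were tested, and 6 rose with CCl4 in NTC livers and 5 in sgBap1 livers. All genes tested were called in 53.9% and 57% of cases, in either direction. Igf2bp2, the member of the family that adult tissues use, was at 1.31 to 2.64 CPM in the 4 vehicle livers and 6.91 to 11.1 in the 6 CCl4 livers (log2 fold changes 2.12, adjusted p = 6.59e-05, and 1.97, adjusted p = 0.000114). Igf2bp1, the other fetal member, had 0 to 4 counts in every liver. Hmga2, a chromatin protein of fetal growth, rose by 2.43 (adjusted p = 0.00102) and 3.57 (adjusted p = 7.95e-05) on the log2 scale, Arid3a by 1.61 and 2.04, and Myc by 1.12 (adjusted p = 0.0252) and 2.86 (adjusted p = 0.000333). Lin28a, Lin28b and Sall4, which mark fetal and stem cells, did not pass the filter.

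Of 15 other genes of fetal, biliary and tumour liver cells, 11 were tested and 8 rose with CCl4 in each genotype, with medians of 2.17 and 2.01. The count in sgBap1 livers was 7 without the liver with adipocyte markers. Of all genes tested, 53.9% in NTC and 57% in sgBap1 livers were called in either direction. Golm1, a Golgi protein that liver tumours release, rose by 3.79 in NTC livers (adjusted p = 1.97e-05), from 3.13 ± 0.272 CPM (SD, n = 2) to 43.5 ± 12 (SD, n = 3), and by 2.74 in sgBap1 livers. Prom1, which marks biliary and progenitor cells, rose by 3.77 in NTC livers (adjusted p = 0.00595), and the keratin genes Krt8 and Krt18 of all liver epithelium by 2.31 and 2.35 in sgBap1 livers. Each of them was called higher in the other genotype too. Of 14 proliferation genes, 14 rose in NTC and 13 in sgBap1 livers, with Ccnb1, a mitotic cyclin, at 6.87 and 5.86 and Mki67 at 5.34 and 4.49 on the log2 scale. The liver with the most Afp, NTC-CCl4 replicate 2, had the lowest summed proliferation level of the CCl4 livers (617 CPM, against 729 to 869).

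**Figure D4:**
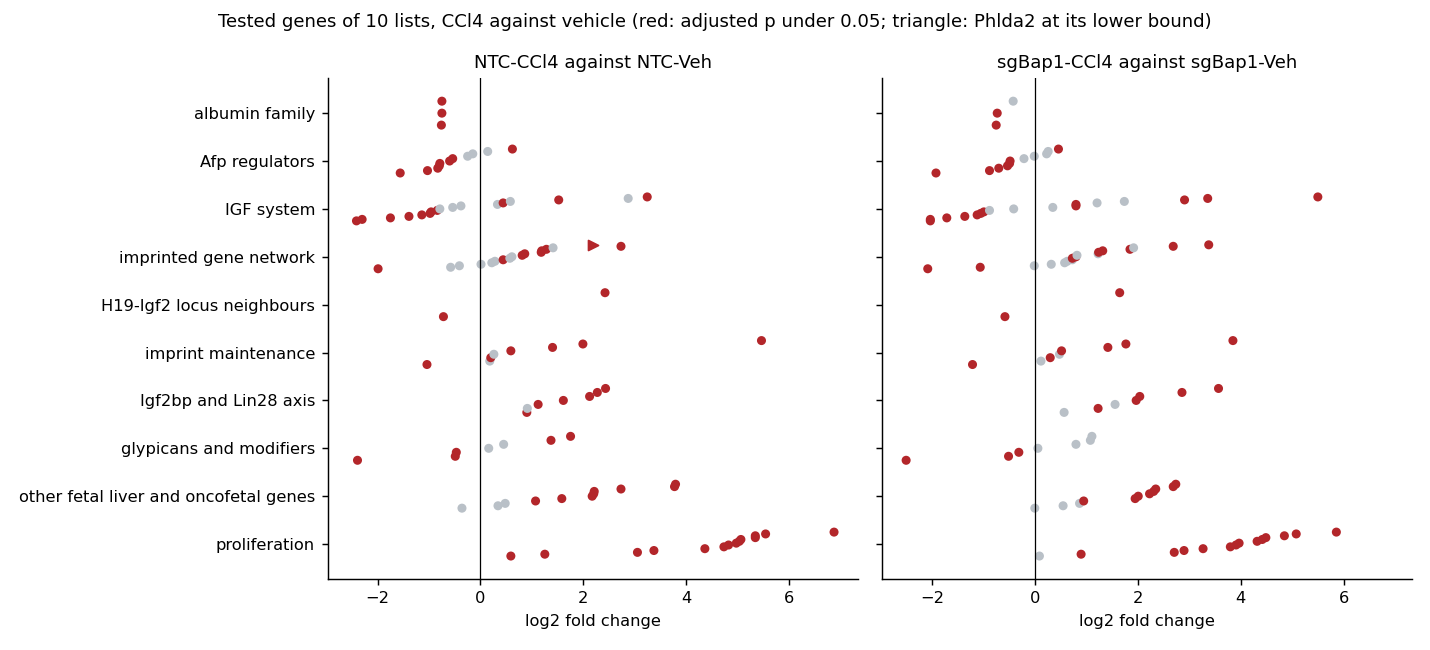
Log2 fold changes of CCl4 against vehicle (horizontal axis) for the tested genes of 10 lists, in NTC livers on the left and sgBap1 livers on the right; each point is a gene, red where the adjusted p is under 0.05, and the triangle marks Phlda2 at its lower bound of 2.19. The proliferation list has medians of 4.89 and 3.94 and the albumin family of -0.75 and -0.73.

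Cell type markers moved with CCl4 beside the members, in comparisons that called 53.9% of all genes in NTC and 57% in sgBap1 livers. The summed hepatocyte markers were 20400 to 23700 CPM in vehicle and 10200 to 13000 in CCl4 livers, with 6 of 8 lower in each genotype, or 5 in sgBap1 livers without the liver with adipocyte markers. Stellate cell and fibroblast markers summed to 241 to 330 CPM in vehicle and 554 to 1510 in CCl4 livers, with 6 of 8 higher in NTC and 5 of 8 in sgBap1 livers. The 1510 was the liver with adipocyte markers, and the other CCl4 livers reached at most 748. Cholangiocyte markers summed to 43.3 to 51.5 and 193 to 370 CPM, most of it Spp1, and of the 6 tested Spp1 and Sox9 were higher while Krt19, Krt7, Epcam and Cftr were not called. Endothelial markers summed to 132 to 178 CPM over all livers, a sum in which single markers moved apart. Lyve1 and Pecam1 were called higher with CCl4 in both genotypes. Clec4g and Kdr were called lower in sgBap1 livers, which was lost without the liver with adipocyte markers and with library totals alone. The summed macrophage markers were at 129 and 181 CPM in the NTC-Veh livers, 251 and 360 CPM with the Bap1 guide in vehicle, and between 279 and 379 CPM in all 6 CCl4 livers. With CCl4, Cd68 and Csf1r were called higher in both genotypes and Adgre1 in NTC livers alone. Clec4f and Timd4 were called lower in sgBap1 livers. Without the liver with adipocyte markers, 1 was higher and 1 lower in sgBap1 livers, and the Timd4 call was lost with library totals alone. In vehicle, 1 of the 6 macrophage markers was called higher with the Bap1 guide, Csf1r, a receptor of macrophages (log2 fold change 1.06, adjusted p = 0.0487). Of all genes tested, 0.406% were called in that comparison, and no member was. Erythroid markers were highest, at 1450 CPM, in NTC-CCl4 replicate 2, the liver with the most Afp, but single markers moved apart. With CCl4, Hba-a1 and Hbb-bs were called higher in NTC livers only, where 1 gene was higher without the liver with adipocyte markers. Klf1 was called lower in both genotypes. Skeletal muscle markers, from a tissue that reads H19 and Igf2, summed to 0.545 to 0.998 CPM in every liver. T and B cell markers summed to 3.52 and 7.95 CPM in the NTC-Veh livers, 10.1 and 11.9 in the sgBap1-Veh livers and 8.28 to 13.5 in the CCl4 livers. Pancreas markers summed to 3.00 to 11 CPM, nearly all of it Cela1, with the others of that list at or near 0. The part of these cells in the changes of Afp, H19 and Igf2 was not tested.

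The genes with the pattern most like each tested member over the 10 livers were found by the root mean square difference of centred log2 CPM. They were picked for likeness in these same livers, so their calls follow in part from that choice. For Afp, whose log2 CPM spans 5.26, the nearest included Tyro3 (0.28) and Gm30692 (0.40). Tyro3, a receptor tyrosine kinase, ran from 0.161 to 0.463 CPM in vehicle and from 2.20 to 4.86 in CCl4 livers. For H19, with a span of 4.31, they were Rab40b (0.56), Lncppara (0.61) and Col25a1 (0.61). All 3 were called lower with CCl4 in both genotypes, where 53.9% (NTC) and 57% (sgBap1) of all genes were called. For Igf2, with a span of 2.42, they were Per1 (0.37), Noxred1 (0.40) and Cd207 (0.42). Per1, a clock gene, was at 63.8 and 66.9 CPM in NTC-Veh livers, 29.2 to 34.4 in NTC-CCl4 livers and 66.1 to 78.3 in sgBap1-CCl4 livers. It was called higher in sgBap1-CCl4 than in NTC-CCl4 livers (log2 fold change 1.17, adjusted p = 0.00287), as were or went lower 0.329% of all genes. For Gpc3, with a span of 3.49, they were Nbl1 (0.30), Cldn15 (0.33) and Gpm6a (0.34), the last a mesothelial marker of the list above. Among the members themselves the nearest pair was H19 and Igf2, at 1.24, and the farthest Afp and H19, at 2.80.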

How the data were processed

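RNA was extracted from fresh frozen liver and sequenced as stranded mRNA libraries in pairs of 50 bases. The authors aligned reads to GRCm38 with STAR 2.7.6a and quantified GENCODE vM25 genes with Salmon 1.4.0, per the labels and the study's methods. The deposited table holds these estimated counts (expected counts) per gene symbol, not normalized. All 10 columns were matched to samples by the library names in the labels. Of the values, 9.22% were not whole and all were rounded.

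In R 4.3.3, edgeR 4.0.16 was used with filterByExpr, TMM factors (0.786 to 1.24) and robust glmQLFit on a model of the 4 groups, with two-sided quasi-likelihood tests and Benjamini-Hochberg adjustment over 17015 genes in each of 6 comparisons. Genes with an adjusted p under 0.05 were called changed. Log2 CPM used a prior count of 2. Named list genes were, for each list and comparison, up to 4 called genes with the largest changes and a mean of at least 10 counts, plus Zhx2, Zbtb20, Alb, Igf2bp1, Igf2bp2, Igf1, Igf2r and Dlk1. Trp53, Foxa1, Lin28a, Lin28b, Sall4 and the single endothelial, macrophage, erythroid and pancreas markers were named after their values were seen. For single members, exact permutation tests over livers were run, with p printed unadjusted. The members and lists were chosen with earlier results of these data known. Alternatives were DESeq2 1.42.0 (size factors, Wald test), limma 3.58.1 voom, library totals alone, other filters, a replicate block, the compared groups only, each liver left out and, added after the data were seen, the edgeR 3 method. The code was tested on simulated data. Positions and exonic lengths were read from GENCODE vM21 (vM25 was not used here), and promoters were taken from RefSeq GRCm38.p6. The labels name no batch. Results for 2 genes that the naming rule selects are not reported here.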

Additional observations from a re-analysis of the deposited data

How the results depend on the processing

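Members called were counted in the 6 comparisons and in the permutation test under other scalings, filters, tests and models. For the permutation test the count used p adjusted over the members and both contrasts, and no member was called in any setting. The counts stayed within 1.5 times the main count in 53 cases. The main count was 0 for the guide, the interaction and the permutation test, so many of these were a 0 that stayed 0. A fall from 3 to 2, as for Igf2 in NTC livers with library totals alone, also counted as within. The 1 exception was a count of 1 member, Igf2, called between sgBap1-CCl4 and NTC-CCl4 by DESeq2's Wald test. With each liver left out, the count in NTC-CCl4 against NTC-Veh was 2 to 3. A group left with 1 liver was assumed to vary like the other groups. The Afp changes with CCl4 were called under every alternative, from 2.96 to 3.49 in NTC and from 4.27 to 4.80 in sgBap1 livers.

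The signs that turned belonged to values that were not called. Afp between the CCl4 groups was 0.02 with library totals alone and 0.05 with limma-voom. Gpc3 in NTC livers was 0.09 with library totals and 0.08 with limma-voom, and in sgBap1 livers -0.00 with DESeq2's Wald test. Bap1 in NTC livers was 0.28 with library totals. Leaving out 1 liver gave, for the guide in vehicle, -0.74 to 0.68 for Igf2 and -0.69 to 2.59 for Gpc3. For the guide in CCl4 it gave -0.23 to 0.47 for Afp and -0.12 to 1.46 for Gpc3. For CCl4 it gave -1.20 to 1.78 for Gpc3 in NTC livers, and in sgBap1 livers -0.34 to 1.08 for Igf2, -0.93 to 1.26 for Gpc3 and -0.04 to 0.15 for Bap1. The Gpc3 interaction was -1.66 to 1.62. The cause was not tested.

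Samples with the same replicate number did not deviate together (correlations -0.149 to 0.102). Groups of 2 and 3 livers are too small to settle from this whether the numbers pair the livers. With the replicate number as a block, no member call changed, Igf2 in NTC livers was -1.31 (adjusted p = 0.0472), Afp between the CCl4 groups was 0.05, and the Bap1 calls in vehicle (adjusted p = 0.0744) and CCl4 (0.0552) were lost. At 3 to 20 counts per liver, as for H19 in the CCl4 livers, depth limits the precision.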
